A study of Mus musculus with 6 samples.

Results

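The 37 genes described here are very long genes expressed in the mouse heart, each spanning 100 kb or more, and their intron reads are set beside their exon reads. They were taken by name from a table of 49585 genes, and all 37 named genes met the length limit. Their spans ran from 214 kb (Mitf) to 1998 kb (Macrod2), with a median of 578 kb, and no named gene lay under the limit. Another 2712 genes of the table were at least as long as the limit and serve as the comparison. The list was chosen by earlier results of these same libraries, taken here to be the intron and exon reads of both groups, which its rule names. Every lunar gravity value of a member is therefore a description and supports nothing by itself.

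The libraries came from heart RNA of male mice that were 8 or 9 weeks old: 3 from ground control at 1 g, called GC1 to GC3, and 3 from lunar gravity at 0.167 g, called LG1 to LG3. Per the labels' protocols, lunar gravity was produced on the space station by a centrifuge of 15 cm radius at 31 rpm, and the ground controls were C57BL/6 J mice, 6 per mission, kept in matching conditions. A strain is labelled for the ground controls alone, and nothing states whether libraries came from separate mice, so the p-values measure only the spread between libraries, which may be technical. A 1 g group in flight was not analysed here, so gravity cannot be told apart from other differences between station and ground, and in bulk heart tissue fewer cells of a type and less RNA per cell cannot be told apart.

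An intron is transcribed with the rest of the gene and is then spliced out and usually degraded, so intron reads come mostly from RNA that is not yet fully processed, while exon reads come mostly from mature RNA. Total RNA depleted of ribosomal RNA keeps such precursors, which libraries made from polyadenylated RNA largely lose. In a very long gene RNA polymerase II needs a long time to pass from start to end, and most of the transcribed sequence is intron. Several of these genes are known for roles in cardiac excitation, the cytoskeleton and gene regulation.

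The table gave 4298414 to 5299540 unique intron reads and 6363261 to 8142215 unique exon reads per library. Exon-exon junction reads made up 22.1% to 22.4% of exon reads in ground control and 21.9% to 22.4% in lunar gravity, and mitochondrially encoded genes took 16.5% to 18.6% of exon reads. The deposited headers list GC3 with the lunar gravity libraries, while its title and column name call it a ground control. It was kept as a ground control, and counts without it are given below. Levels are CPM, counts relative to the TMM-scaled library size, computed within intron reads or within exon reads. A log2 fold change is negative where lunar gravity was lower.

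Intron reads of the 37 genes were lower in lunar gravity as a group, and their exon reads were lower to a smaller extent. Summed over the genes, intron reads were 27587, 29031 and 29210 CPM in GC1 to GC3 and 20099, 20623 and 21500 CPM in LG1 to LG3. The groups did not overlap, and the lunar gravity mean (20741 ± 708 CPM, SD, n = 3) was 1.38-fold lower than the ground control mean (28609 ± 890 CPM, n = 3). Summed exon reads were 5114, 5294 and 5351 CPM in GC1 to GC3 and 4769, 5030 and 4771 CPM in LG1 to LG3, a 1.08-fold lower mean, again without overlap. Junction reads were 16.6% ± 0.092 of the members' exon reads in ground control and 17.1% ± 0.45 in lunar gravity (SD, n = 3), with overlapping groups.

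Gene by gene, the median intron log2 fold change was -0.43, beside 0.0070 over all 11968 genes tested, and 35 of the 37 were negative. The 2 others were Foxp1 (0.056) and Rbms3 (0.00088), both within their standard errors. edgeR's quasi-likelihood test called 20 of the 37 lower and 0 higher at an adjusted p under 0.05, where 2.5% of all tested genes were called lower and 0.359% higher. DESeq2 called 22 lower and limma voom 24, and neither called a member higher. At an unadjusted p under 0.05 there were 31 members, and 1695 of all 11968 genes tested. In 33 members every ground control library lay above every lunar gravity library, a pattern seen in 10.1% of all tested genes. It was also seen in 533 of 2104 other genes of 100 kb or more, and in 68 of the 161 of 500 kb or more.

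In exon reads the median log2 fold change of the 36 genes tested was -0.068, beside 0.0013 over all 12172 genes. Fhit was not tested, because each library held only a handful of its exon reads (a mean of 5.67 in ground control and 8.00 in lunar gravity). The test called 6 members lower in exon reads (Ank2, Ank3, Exoc4, Fgf12, Lpp and Zbtb20) and 0 higher, where 2.14% of all genes were called lower and 1.42% higher. At an unadjusted p under 0.05 there were 15 members, and 1877 of all 12172 genes. DESeq2 called 3 members lower and limma voom 5, with 0 higher in both. Ground control lay wholly above lunar gravity in 13 members (10.7% of all genes) and wholly below it in 4 (9.91%). Among 1739 other genes of 100 kb or more these numbered 238 and 132.

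**Figure D1:**
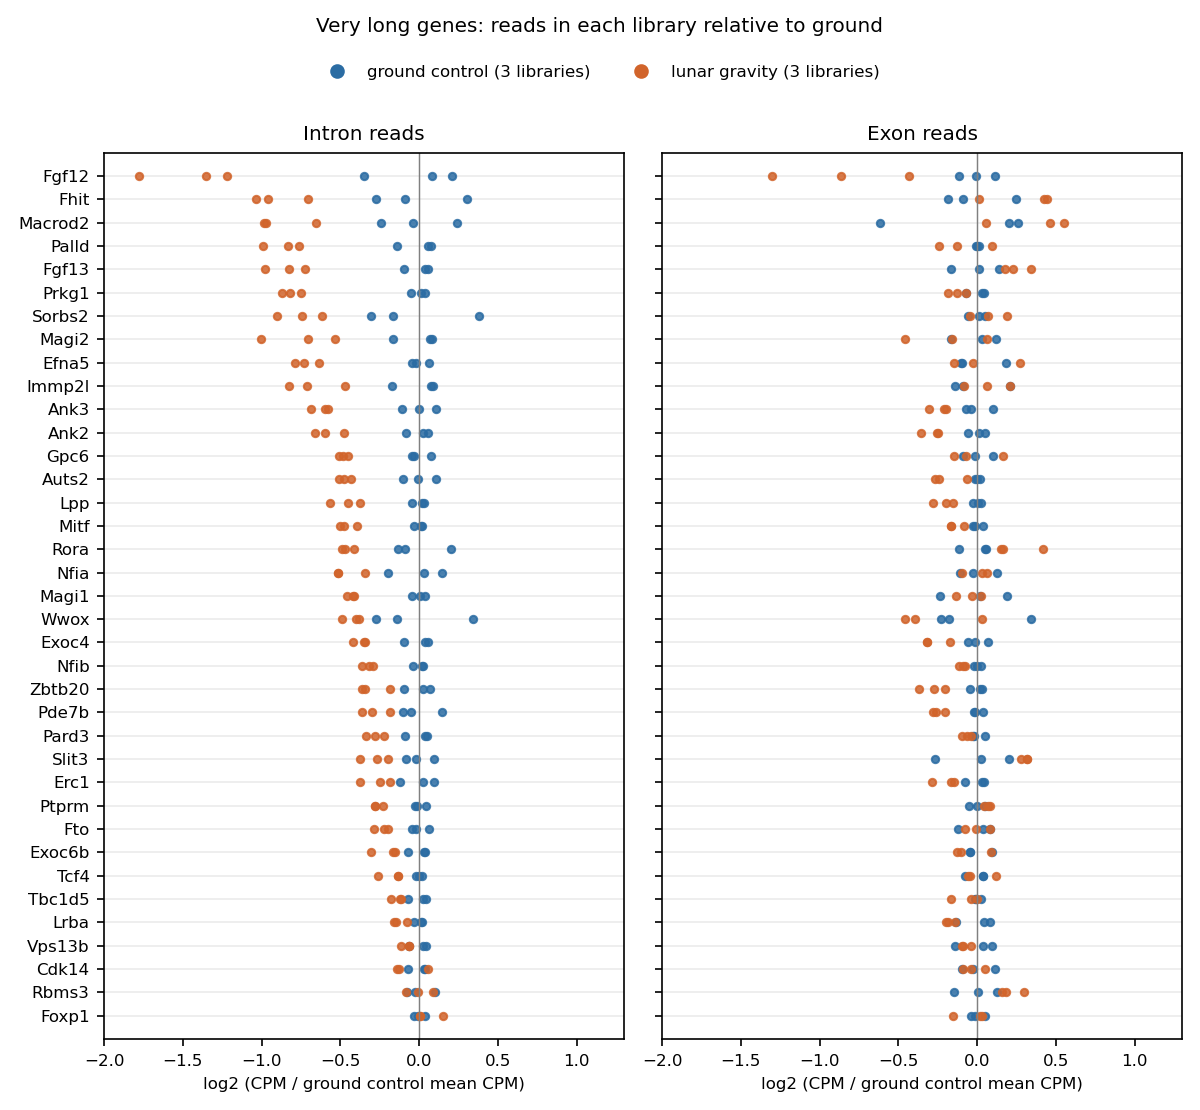
Intron reads (left) and exon reads (right) of each of the 37 genes in each library, as log2 of CPM over the gene's ground control mean, with genes ordered by intron log2 fold change; blue points are the 3 ground control and orange points the 3 lunar gravity libraries. In 33 genes the intron points of ground control all lie right of those of lunar gravity, and in 13 genes the exon points do.

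The difference between the intron and the exon change was fitted for each gene in 1 model over both kinds of reads. Its median was -0.28 over 36 members, beside 0.0080 over 10325 genes, and 12 members were called lower and 0 higher, where 1.17% of all genes were called lower and 0.165% higher. These were Ank3, Efna5, Fgf13, Gpc6, Immp2l, Macrod2, Nfia, Palld, Prkg1, Rora, Slit3 and Sorbs2, that is, genes whose intron reads were lower relative to their own exon reads. At an unadjusted p under 0.05 there were 23 members, and 1067 of all 10325 genes. For this difference limma voom called 13 members lower and 0 higher.

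Intron reads were also scaled on the exon library sizes, which leaves a change in the intron content of a whole library in the fold changes. On that scale the median of all tested genes was itself -0.14, and the members' median was -0.58, with 37 of 37 negative. It called 31 members lower and 0 higher, where 6.89% of all genes were called lower and 0.159% higher. Relative to the median of all genes, the members' median was -0.44 on both scales. The scales share the same counts and differ only in library sizes, so this likeness was set in advance.

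Without GC3, the counts of members called lower were 22 in intron reads, 2 in exon reads, 10 in the intron against exon difference and 28 on exon library sizes. The exon count was also 2 without GC2 and without LG2 and 3 without LG1. The count for the difference was 7 without GC2, 7 without LG1 and 6 without LG2.

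**Figure D2:**
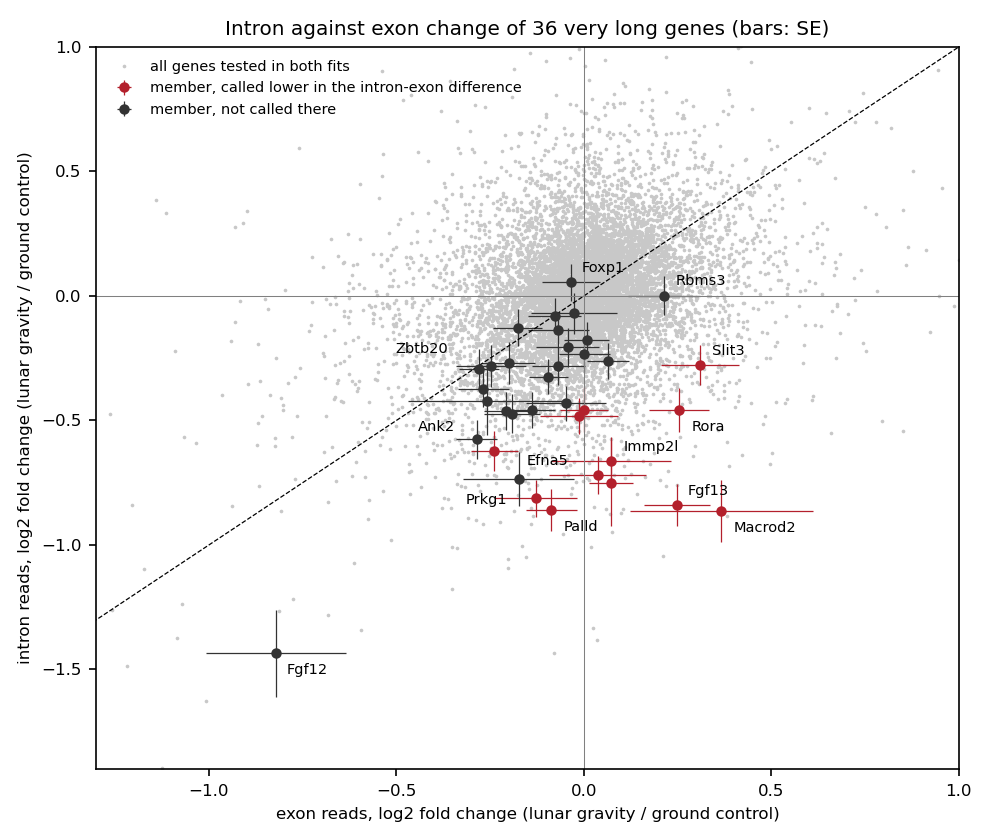
Log2 fold change of intron reads (vertical) against that of exon reads (horizontal) for the 36 members tested in both (large points, bars are SE) and all 10325 genes tested in both (grey; 48 lie outside the axes); the dashed line marks equal change. The 12 red members, called lower in the intron against exon difference, all lie below the line.

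The share of unique reads that lay in introns was also compared between the groups. It is computed from the same intron and exon counts as the fold changes, so its likeness to them was set in advance. Over the 37 genes together the share was 79.6%, 79.6% and 80.3% in GC1 to GC3 against 74.6%, 72.9% and 73.7% in LG1 to LG3. In 32 of the 37 the share was lower in every lunar gravity library than in any ground control library, which held for 18.4% of all 10325 genes tested in both read types and for 35.7% of the 1712 other long ones. Mean shares in ground control ran from 40.5% (Sorbs2) to 99.2% (Fhit).

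The intron share of all other genes holds no reads of the members. It comes from the same libraries, and whether the choice of members used it is not known. It was 42.4%, 41.2% and 42.9% in GC1 to GC3 against 40.2%, 37.7% and 38.5% in LG1 to LG3, a difference of -3.36 percentage points (42.2% ± 0.88 against 38.8% ± 1.27, SD, n = 3). Among other genes of 100 kb or more it was 58.0% ± 0.35 against 53.9% ± 0.93, a difference of -4.05 points. In both, every lunar gravity library lay below every ground control library, and the two-sided exact permutation test gave p = 0.1, the smallest that 3 against 3 libraries allow. Genes annotated with 0 exons have all their reads in the intron column, 36.5% of the reads there, and without these genes the difference over other genes was -3.72 points.

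**Figure D3:**
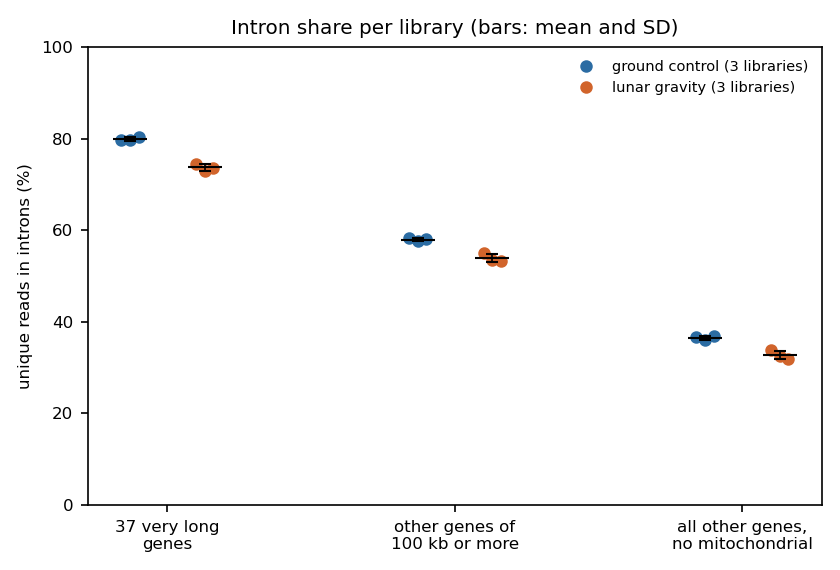
Percent of unique gene reads that lie in introns, per library, for the 37 very long genes, other genes of 100 kb or more, and all other genes without the mitochondrially encoded ones; points are libraries and bars the mean and SD of 3. In each set the lunar gravity points lie below the ground control points, at 53.9% against 58.0% in the other long genes.

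The members stood within a wider pattern by gene span. Among other genes the median intron log2 fold change was 0.070 under 10 kb, 0.043 from 10 to 30 kb, 0.0079 from 30 to 100 kb, -0.058 from 100 to 200 kb, -0.13 from 200 to 500 kb and -0.27 at 500 kb or more. The corresponding exon medians moved less, from 0.012 in the shortest to -0.077 in the longest class. In intron reads 193 of the 2104 other long genes tested were called lower (9.17%) and 3 higher, with a median of -0.089. The 14 members of 200 to 500 kb had a median of -0.39 with 7 called lower, and the 23 members of 500 kb or more a median of -0.43 with 13 called lower. In exon reads 56 of 1739 other long genes were called lower (3.22%), and in the difference 70 of 1712 (4.09%). When a smooth trend of fold change on span was removed, 8 members were still called lower in intron reads, with a median of -0.17.

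**Figure D4:**
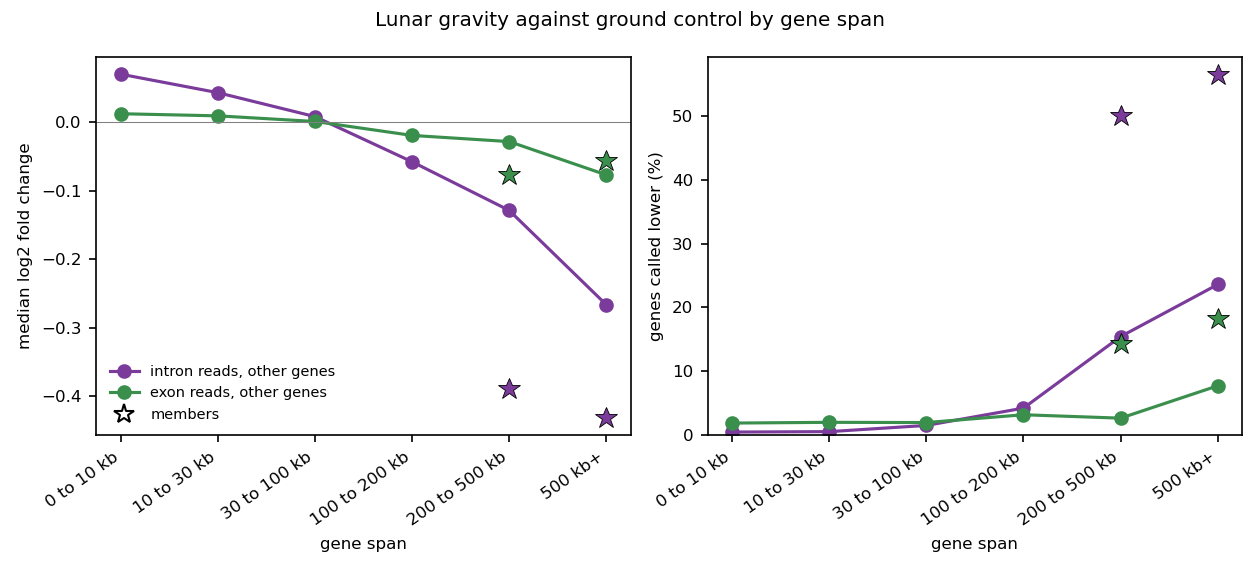
Median log2 fold change (left) and percent of genes called lower (right) by gene span for intron reads (purple) and exon reads (green); circles are other genes and stars the members in the 2 longest classes. The intron medians of other genes run from 0.070 in the shortest to -0.27 in the longest class, and the members' medians are -0.39 and -0.43.

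Within the 37 genes, span itself ordered the intron changes little (Spearman's rho -0.13 across genes, n = 37). The longest stretch without an exon ordered them more (rho -0.47), and so did the intron share in ground control (rho -0.38). That share and the intron change both contain the ground control intron reads, which by itself pulls their rho below 0. The intron change had a rho of 0.068 with the exon change (n = 36). These are descriptions across genes of the same 6 libraries, which are not independent replicates.

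The sequences around a few starts are shown for comparison of members with low intron changes and one with an intron change near 0. RefSeq promoters (GRCm38.p6, 250 bases before to 50 after the start) were matched by symbol for 30 of the 37 genes, and they are printed with CG in capitals. The first belong to Prkg1 and Palld, with intron changes of -0.81 and -0.86, and the last to Rbms3, with 0.00088.
Prkg1, minus strand, chr19:31764984-31765283: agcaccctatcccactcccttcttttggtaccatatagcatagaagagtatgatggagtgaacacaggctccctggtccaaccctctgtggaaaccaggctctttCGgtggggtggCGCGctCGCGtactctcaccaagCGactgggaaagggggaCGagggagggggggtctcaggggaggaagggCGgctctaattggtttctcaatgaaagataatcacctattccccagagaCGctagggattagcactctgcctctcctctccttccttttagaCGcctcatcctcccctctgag
Palld, minus strand, chr8:61902658-61902957: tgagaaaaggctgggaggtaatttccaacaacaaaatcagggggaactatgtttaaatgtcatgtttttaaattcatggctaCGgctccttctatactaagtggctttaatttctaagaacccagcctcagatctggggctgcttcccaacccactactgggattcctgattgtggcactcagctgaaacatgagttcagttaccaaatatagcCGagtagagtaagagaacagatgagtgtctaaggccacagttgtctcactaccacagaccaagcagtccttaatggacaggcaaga
Rbms3, minus strand, chr9:117629864-117630163: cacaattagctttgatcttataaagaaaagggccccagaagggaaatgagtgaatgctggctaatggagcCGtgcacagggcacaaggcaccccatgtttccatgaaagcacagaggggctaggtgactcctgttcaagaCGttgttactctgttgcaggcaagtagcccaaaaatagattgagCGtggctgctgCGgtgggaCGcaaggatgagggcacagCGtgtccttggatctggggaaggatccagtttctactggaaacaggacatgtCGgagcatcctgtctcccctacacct
They hold 10, 2 and 7 CG dinucleotides. The median over the 30 members was 20.5, beside 7 over 27025 genes, and 60% of the members held 15 or more, beside 35.2% of all genes. The letters TATAAA, searched on both strands, were in 2 members (6.67%), the Rbms3 window among them, and in 14.2% of all genes. Of the members, 16 have 2 or more starts in RefSeq, and the most upstream was used.

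Some of these genes hold microRNAs within their spans, and whether each lies in an intron was not checked. MicroRNAs that lie in introns are usually cut from the host's precursor RNA. RefSeq places 10 mature microRNAs on the same strand within 6 of the members, with 10 distinct seeds. Those of Fgf13, Lpp and Slit3 are shown because the difference was called in Fgf13 and Slit3 and both kinds of read in Lpp, with the seed (bases 2 to 8) in capitals. MicroRNA levels were not analysed here.
mmu-miR-504-5p (in Fgf13): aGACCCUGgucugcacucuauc
mmu-miR-28a-5p (in Lpp): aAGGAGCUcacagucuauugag
mmu-miR-28a-3p (in Lpp): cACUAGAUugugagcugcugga
mmu-miR-218-5p (in Slit3): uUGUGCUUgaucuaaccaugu
mmu-miR-218-2-3p (in Slit3): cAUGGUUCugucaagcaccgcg
The intron against exon difference of these hosts was -1.09 for Fgf13, -0.25 for Lpp (not called) and -0.59 for Slit3.

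The signalling group holds ligands, their surface partners, channel modulators and enzymes of cyclic nucleotide signalling, and 5 of its 9 members were called lower in intron reads (Prkg1, Fgf12, Fgf13, Efna5 and Gpc6). Only Fgf12 was called lower in exon reads, and 5 were called lower in the difference (Prkg1, Fgf13, Efna5, Gpc6 and Slit3). The median intron log2 fold change was -0.48 and the median exon change -0.013. For this and the following role groups, the shares of all tested genes called lower were 2.5% (intron), 2.14% (exon) and 1.17% (difference).

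Fgf13 encodes an intracellular fibroblast growth factor homologue that binds voltage-gated sodium channels, and it lies on the minus strand of chromosome X (GRCm38, chrX:59062145-59568071), with one exon-free stretch of 316 kb. Its intron level was 2277, 2539 and 2498 CPM in GC1 to GC3 and 1238, 1375 and 1472 CPM in LG1 to LG3. Exon reads stood at 41.6, 36.8 and 45.5 CPM in GC1 to GC3 and 48.4, 52.3 and 46.7 CPM in LG1 to LG3. Intron reads were thus lower and exon reads higher in every lunar gravity library, with no overlap in either. The intron log2 fold change was -0.84 (SE 0.083, called), the exon change 0.25 (SE 0.088, not called) and the difference -1.09 (SE 0.12, called). Per kb of intron it had the highest ground control level of the 37, 4.86 ± 0.28 CPM (SD, n = 3), against 2.71 ± 0.23 in lunar gravity.

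Fgf12, its paralogue and also a sodium channel modulator (minus strand, chr16:28160120-28445227), had the lowest intron change and the lowest exon change of the members. Its intron level was 193, 211 and 143 CPM in GC1 to GC3 and 53.1, 71.5 and 78.5 CPM in LG1 to LG3, and its exon level 10.6, 11.5 and 12.5 CPM against 4.66, 6.32 and 8.53 CPM. The groups did not overlap in either kind of read, although the lunar gravity exon values were spread widely. The log2 fold change was -1.43 (SE 0.17) in intron and -0.82 (SE 0.19) in exon reads, both called, and the difference of -0.60 (SE 0.19) was not. The exon call was lost without GC2, GC3, LG1 or LG2, and the change ran from -1.08 to -0.62 with single libraries left out. The difference was called without GC3.

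Prkg1 encodes the cyclic GMP-dependent protein kinase of the nitric oxide and natriuretic peptide pathways (minus strand, chr19:30567551-31765033, a span of 1197 kb). It had 1468, 1491 and 1402 intron CPM in GC1 to GC3 against 824, 795 and 865 in LG1 to LG3. Its exon level was 22.1, 20.6 and 22.3 CPM in GC1 to GC3 and 20.7, 19.8 and 19.0 CPM in LG1 to LG3. The intron groups were far apart and the exon groups overlapped by 1 library on each side. The log2 fold change was -0.81 (SE 0.074, called) in intron reads and -0.13 (SE 0.11, not called) in exon reads, and the difference of -0.68 (SE 0.13) was called, also with any single library left out.

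The others in this group were given the same test. Efna5, a membrane-bound ligand of Eph receptors, had intron and exon changes of -0.72 and 0.037, and Gpc6, a glypican that carries heparan sulfate at the cell surface, had -0.48 and -0.013. Slit3, a secreted ligand of Robo receptors, had an intron change of -0.28 and an exon change of 0.31, neither called, with a called difference of -0.59 (SE 0.12). Ptprm (a receptor tyrosine phosphatase), Pde7b (a cyclic AMP phosphodiesterase) and Cdk14 (a cyclin-dependent kinase) had intron changes of -0.26, -0.28 and -0.069, and none was called in intron or exon reads or in the difference.

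In all 9 genes of the cytoskeletal and junctional group the ground control intron reads lay wholly above those of lunar gravity. That pattern was seen in 33 of the 37 members, in 10.1% of all tested genes and in 533 of 2104 other genes of 100 kb or more. The group had 6 members called lower in intron reads (Palld, Lpp, Ank2, Ank3, Magi1 and Magi2), 3 in exon reads (Lpp, Ank2 and Ank3) and 3 in the difference (Palld, Ank3 and Sorbs2). The medians were -0.58 in intron and -0.17 in exon reads.

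Palld encodes palladin, an actin-binding scaffold of stress fibres and Z-discs (minus strand, chr8:61511433-61902690). Its intron level was 1139, 1305 and 1326 CPM in GC1 to GC3 and 631, 742 and 704 CPM in LG1 to LG3. Exon reads stood at 371, 367 and 368 CPM in GC1 to GC3 and 311, 394 and 337 CPM in LG1 to LG3. The intron groups were separate, while in exon reads LG2 was the highest library of all 6. The log2 fold change was -0.86 (SE 0.086, called) in intron and -0.086 (SE 0.068, not called) in exon reads, and the difference was -0.77 (SE 0.10, called). The intron share of its reads was 71.2% ± 2.05 in ground control and 56.8% ± 1.62 in lunar gravity (SD, n = 3).

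Ank2 and Ank3 encode ankyrin-B and ankyrin-G, adaptors that hold channels and transporters at membrane domains of the cardiomyocyte. Ank2 (minus strand, chr3:126921612-127499350) had 876, 946 and 964 intron CPM in GC1 to GC3 against 588, 614 and 668 in LG1 to LG3. Its exon level was 304, 318 and 327 CPM against 247, 265 and 266 CPM, so that neither kind of read overlapped. Its intron change was -0.58 (SE 0.078) and its exon change -0.29 (SE 0.055), both called, and the difference of -0.29 (SE 0.095) was not.

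Ank3 (plus strand, chr10:69533772-70027438) had 414, 446 and 482 intron CPM in GC1 to GC3 against 278, 296 and 299 in LG1 to LG3. Exon reads stood at 159, 163 and 179 CPM against 135, 144 and 145 CPM, again without overlap. It was called in all 3 tests, with an intron change of -0.62 (SE 0.079), an exon change of -0.24 (SE 0.062) and a difference of -0.38 (SE 0.093). The exon call was lost without GC2, GC3, LG1 or LG2, and of the single libraries left out the call of the difference held only without GC1, while the intron call held without each single library.

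Sorbs2, an adaptor of Z-discs and intercalated discs, had the lowest intron share of the 37, 40.5% ± 6.75 in ground control and 26.1% ± 0.83 in lunar gravity. GC1 stood apart with 800 intron CPM, against 547 and 497 in GC2 and GC3 and 329 to 402 in lunar gravity. Its intron change of -0.75 (SE 0.17) was not called. Lpp, a LIM protein of adhesion sites, had an intron change of -0.46 and an exon change of -0.21. The junction scaffolds Magi1 and Magi2 had -0.43 and -0.74 in intron reads and were not called in exon reads. Pard3, a cell polarity scaffold, and Erc1, a scaffold of the cell cortex, had intron changes of -0.28 and -0.27 and were not called.

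Of the 9 gene regulators, 5 were called lower in intron reads (Auts2, Mitf, Nfia, Nfib and Rora), 1 in exon reads (Zbtb20) and 2 in the difference (Nfia and Rora). Their medians were -0.32 in intron and -0.035 in exon reads.

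Rora encodes a nuclear receptor of the circadian and metabolic programme (plus strand, chr9:68653786-69388246) with an exon-free stretch of 531 kb. Its intron level was 1036, 1005 and 1269 CPM in GC1 to GC3 and 829, 796 and 786 CPM in LG1 to LG3. Its exon level was 69.9, 62.1 and 69.6 CPM against 89.8, 75.4 and 74.7 CPM. Intron reads were lower and exon reads higher in every lunar gravity library, as for Fgf13. The intron change was -0.46 (SE 0.089, called), the exon change 0.25 (SE 0.080, not called) and the difference -0.70 (SE 0.11, called). The intron call was lost without LG2 and the call of the difference held without each single library.

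Zbtb20, a zinc finger repressor (plus strand, chr16:42875881-43642602), had the highest exon level per kb of the 37 in ground control (43.2 ± 1.21 CPM, SD, n = 3) and similar fold changes in both kinds of read. Its intron level was 2520, 2817 and 2737 CPM in GC1 to GC3 and 2094, 2119 and 2370 CPM in LG1 to LG3. Exon reads stood at 1286, 1343 and 1355 CPM against 1098, 1154 and 1028 CPM. Neither kind of read overlapped. The exon change of -0.28 (SE 0.053) was called, the intron change of -0.29 (SE 0.080) was called only without GC1 among the single libraries left out, and the difference was -0.014 (SE 0.10).

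Nfia, a nuclear factor I protein (plus strand, chr4:97772734-98118874), had 1337, 1567 and 1696 intron CPM in GC1 to GC3 against 1071, 1074 and 1207 in LG1 to LG3. Its exon level was 193 ± 16 CPM in ground control and 193 ± 11.5 in lunar gravity (SD, n = 3), with overlapping groups. The intron change of -0.46 (SE 0.091) and the difference of -0.45 (SE 0.099) were called, and both calls were lost without GC2 or LG2.

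Mitf, the shortest member (plus strand, chr6:97807052-98021349) and a basic helix-loop-helix factor, had 549, 532 and 549 intron CPM in GC1 to GC3 against 391, 413 and 383 in LG1 to LG3. Its intron change was -0.46 (SE 0.072, called) and its exon change -0.14 (SE 0.062, not called). Auts2, a partner of Polycomb complexes (minus strand, chr5:131437333-132543344), had 942, 1006 and 1091 intron CPM against 751, 712 and 727. Its intron change was -0.47 (SE 0.077, called) and its exon change -0.19 (SE 0.075, not called). Neither gene's intron groups overlapped, and both intron calls held without each single library.

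Nfib, a second nuclear factor I protein, was called lower in intron reads (-0.32, SE 0.071) and not in exon reads (-0.094). The helix-loop-helix factor Tcf4 had -0.18 and 0.0073 and was called in neither. Foxp1, a forkhead factor, had 412, 406 and 426 intron CPM in GC1 to GC3 against 459, 416 and 417 in LG1 to LG3, with overlapping groups. Rbms3, an RNA-binding protein gene of 1057 kb, had 422, 373 and 386 intron CPM against 391, 372 and 418, also overlapping. Both are longer than most members and had the smallest intron changes of the 37.

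The membrane trafficking genes had the smallest median intron change of the role groups, -0.14, beside an exon median of -0.078 and 1 of 5 called in each. Exoc4 encodes a subunit of the exocyst, which tethers secretory vesicles at the plasma membrane (plus strand, chr6:33249085-33973979). It had 590, 597 and 539 intron CPM in GC1 to GC3 against 452, 430 and 451 in LG1 to LG3, and 91.7, 88.9 and 96.9 exon CPM against 82.0, 74.1 and 74.3. Neither kind of read overlapped. The intron change of -0.37 (SE 0.075) and the exon change of -0.27 (SE 0.069) were called, the first lost without GC2 or LG2 and the second held only without LG1.

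Exoc6b, another exocyst subunit, had an intron change of -0.21 (SE 0.077), from 350, 351 and 326 CPM in GC1 to GC3 to 277, 307 and 305 in LG1 to LG3, and an exon change of -0.043 (SE 0.085). It was not called in either, and its intron groups did not overlap. Tbc1d5, a Rab GTPase-activating protein, Lrba, a BEACH domain protein, and Vps13b, a lipid transfer protein of the Golgi, had intron changes of -0.14, -0.13 and -0.080. None was called. The span of Vps13b also holds Cox6c, a subunit gene of cytochrome c oxidase with a mean of 4426 exon reads, against 1451 intron reads of Vps13b. No other member held a gene whose exon reads exceeded 10% of its own intron reads. How the counting treats overlapping genes or strand is not given in the sources used here, so values of overlapping and antisense pairs are uncertain.

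Of the 5 enzyme genes, several of which lie at common fragile sites in human cells, 3 were called lower in intron reads (Fhit, Immp2l and Macrod2) and none of the 4 tested in exon reads by edgeR, DESeq2 or limma voom. The medians were -0.66 in intron and 0.037 in exon reads, and introns took 96.7% to 99.2% of the reads of 4 of them in ground control and 77.3% of those of Fto.

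Macrod2, which removes mono-ADP-ribose from proteins, was the longest member (plus strand, chr2:140395309-142392966) and had the lowest intron level per kb, 0.088 ± 0.015 CPM in ground control and 0.049 ± 0.0065 in lunar gravity. Its intron level was 148, 171 and 208 CPM in GC1 to GC3 and 89.7, 88.8 and 112 CPM in LG1 to LG3. Exon reads stood at 4.93, 4.73 and 2.68 CPM against 5.67, 6.03 and 4.27 CPM, from a mean of 27.3 and 40.7 reads. The intron groups were separate and the exon groups overlapped. The intron change was -0.86 (SE 0.12, called), the exon change 0.37 (SE 0.24, not called) and the difference -1.22 (SE 0.29, called). The difference was not called without GC2, GC3, LG1 or LG2, and it ran from -1.49 to -0.86 with single libraries left out.

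Immp2l, a subunit of the inner membrane peptidase of mitochondria (plus strand, chr12:41024090-41955588), has an exon-free stretch of 518 kb. It had 553, 655 and 661 intron CPM in GC1 to GC3 against 351, 380 and 449 in LG1 to LG3, and 11, 8.59 and 8.92 exon CPM against 8.95, 9.91 and 11. The intron groups were separate and the exon groups overlapped. The intron change was -0.66 (SE 0.097) and the difference -0.73 (SE 0.16), both called, and of the single libraries left out the call of the difference held only without GC1. Fhit, a dinucleoside polyphosphate hydrolase, had an intron change of -0.90 (SE 0.14, called), and Wwox, an oxidoreductase with WW domains, one of -0.42 (SE 0.14, not called). Fto, an RNA demethylase, had an intron change of -0.23 and an exon change of 0.00096, neither called.

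**Figure D5:**
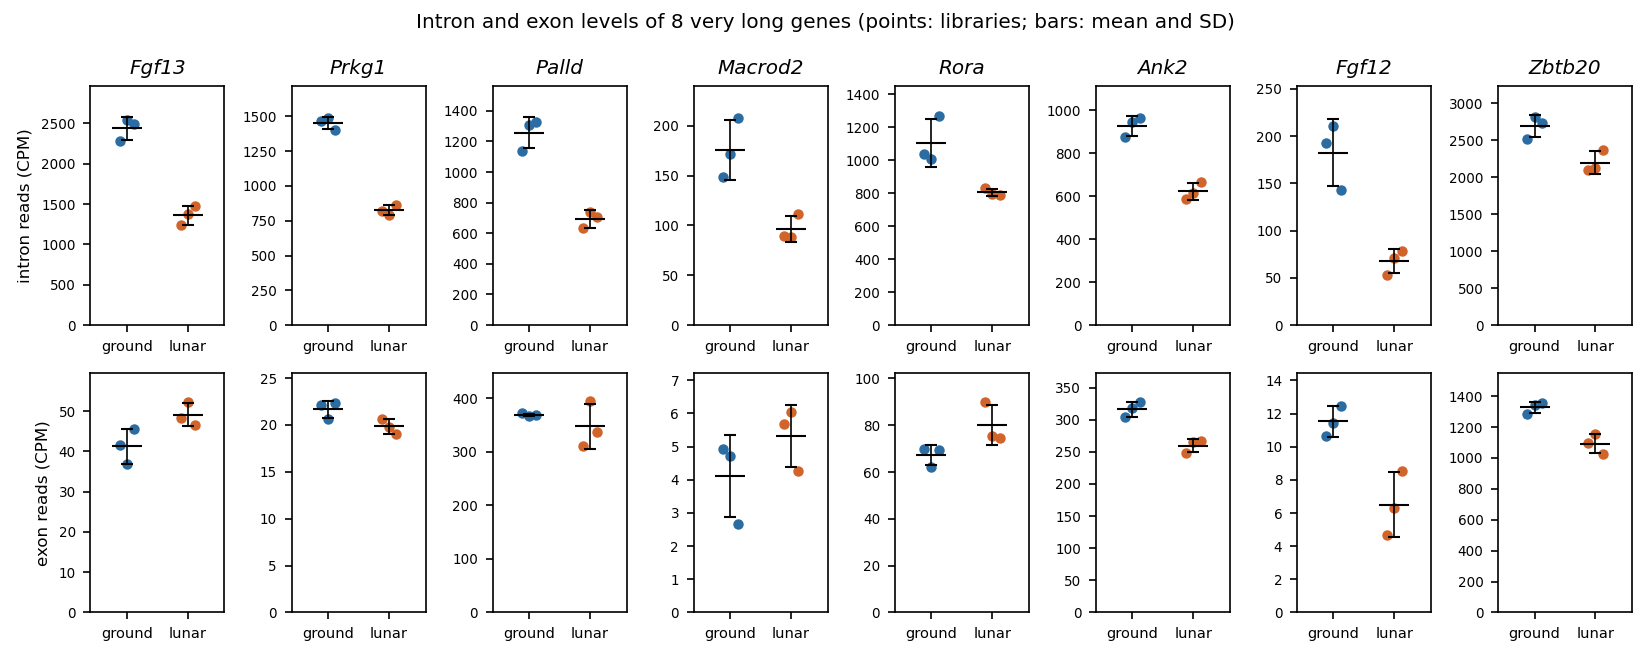
Intron reads (top) and exon reads (bottom), in CPM from 0, of 8 of the genes in each library; points are libraries and bars the mean and SD of 3 per group. In Fgf13 and Rora intron reads are lower and exon reads higher in every lunar gravity library, in Palld, Prkg1 and Macrod2 the intron groups alone are separate, and in Ank2, Fgf12 and Zbtb20 both kinds of read are lower.

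Another 30 long genes known from heart muscle, channels and cardiac regulation, which are not members, were set beside them. In intron reads 16 of the 30 were called lower and 0 higher, with a median of -0.37. Of all tested genes 2.5% were called lower there, and of all other genes of 100 kb or more 9.17%. DESeq2 and limma voom each called 17 of the 30 lower and 0 higher. In exon reads 5 were called lower and 1 higher, where 2.14% of all genes were lower and 1.42% higher. In the difference 12 were called lower, where 1.17% of all genes and 4.09% of other long genes were. Ryr2, the calcium release channel of the sarcoplasmic reticulum, had 9004 ± 696 intron CPM in ground control and 3978 ± 305 in lunar gravity, with an exon change of -0.35. Cacna1c, the pore of the L-type calcium channel, had 5515 ± 110 against 2859 ± 300 intron CPM and an exon change of 0.074. This list too was written with earlier results known.

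Of 34 genes that act in elongation through long genes, splicing and RNA decay, edgeR called 0 changed in exon reads, as did DESeq2 and limma voom, with 6, 2 and 6 at an unadjusted p under 0.05. Of all 12172 genes, edgeR called 2.14% lower and 1.42% higher, and 1877 had an unadjusted p under 0.05. Neither count is read as a result about these 34 genes. Their median exon change was -0.0071. The smallest p belonged to Leo1, a subunit of the Paf1 elongation complex, at 17.6 ± 3.37 CPM in ground control and 12.4 ± 0.69 in lunar gravity (log2 fold change -0.49, SE 0.14, edgeR quasi-likelihood adjusted p = 0.055). Without GC3, 1 of the 34 was called lower.

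Some markers and nuclear RNAs differed between the same libraries. Beside the counts below, 2.14% of all genes were called lower and 1.42% higher in exon reads, and 1877 of 12172 had an unadjusted p under 0.05. Of 8 cardiomyocyte markers, 3 were called lower in exon reads (Myh6, Actc1 and Ryr2) and 1 higher (Pln), and their summed exon level was 56066 to 56970 CPM in ground control and 44004 to 49326 in lunar gravity. Of 8 fibroblast markers, 4 were called lower (1556 to 1568 against 1320 to 1454 CPM), and of 8 smooth muscle and pericyte markers 1 was lower and 2 higher (1786 to 1846 against 1886 to 2025 CPM). Endothelial markers had 0 of 8 called, with 2 at an unadjusted p under 0.05 (1417 to 1468 against 1328 to 1519 CPM). Macrophage (0 of 8 called, 1 at an unadjusted p under 0.05), Schwann and neural (0 of 5 tested, 0), adipocyte (0 of 2 tested, 1) and red cell (0 of 7 tested, 0) markers had none called, and DESeq2 and limma voom also called none of these or of the endothelial markers.

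Summed exon levels were 250 to 264 against 213 to 261 CPM for the macrophage list, 25.3 to 28.6 against 24.8 to 29.7 for Schwann and neural, 306 to 318 against 272 to 295 for adipocyte and 418 to 601 against 403 to 679 for red cell markers. The adipocyte marker Ucp1 was at 0 in exon reads. Of 5 nuclear-retained RNAs tested, Malat1 and Neat1 were called lower in exon reads, at -0.44 and -0.42, and their list summed to 3302 to 3473 CPM in ground control and 2410 to 2600 in lunar gravity. Malat1 (6.98 kb) and Neat1 (20.8 kb) were also called lower in intron reads on both scalings, at -0.33 and -0.67 when scaled on intron reads. They were not called in the difference, so lower intron reads were not confined to long genes. In intron reads the cardiomyocyte list summed to 11803.5 to 13332.5 CPM in ground control and 5707.6 to 6748.6 in lunar gravity, mostly Ryr2. All 6 tested there were negative, and Myh6 (24.9 kb) and Ryr2 were called lower, at -0.85 and -1.18. Both were also called in the difference. No marker of another cell type was called in intron reads scaled on intron reads. On exon library sizes, 4 of the 6 cardiomyocyte markers tested were called lower, where 6.89% of all genes were. So were 1 endothelial (Kdr, -0.43), 1 smooth muscle and pericyte (Abcc9, -0.42) and 1 macrophage marker (Adgre1, -0.63). Markers of other cell types of 100 kb or more, with changes scaled on intron reads, were Tek (0.14), Vwf (0.022), Abcc9 (-0.28), Adgre1 (-0.49), Mrc1 (-0.13) and Cx3cr1 (-0.17). The part of any of these differences in the members' intron values was not tested.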

How the data were processed

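Per the labels' protocols, about 500 ng of heart RNA per library was depleted of ribosomal RNA before sequencing. The authors deposited 1 table for the 6 libraries, in which unique and total exon, intron and junction reads per gene are whole read counts, per the file headers. Per the submitters' processing notes, reads were placed on GRCm38 (mm10). An aligner, a counter and a strand setting were not given in the sources used here. Gene starts, ends, exon lengths and overlaps came from the deposited annotation, with starts converted to count from 1. Strands and longest exon-free stretches came from GENCODE M21, in which 29 of the 37 members had the same start and end. Fgf12 runs to position 28753068 there, against 28445227 in the deposited annotation, so its counted span is shorter.

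Genes were filtered with filterByExpr (minimum count 10), scaled by TMM and fitted in R 4.3.3 with the robust quasi-likelihood test of edgeR 4.0.16, with Benjamini-Hochberg adjustment over all genes tested and calls at an adjusted p under 0.05. Unique intron counts and unique exon counts were fitted separately, intron counts again on exon library sizes, and both together in 1 model of 12 columns with library as a block. The biological coefficient of variation was 8.78% in intron and 6.20% in exon reads. Alternatives were DESeq2 1.42.0, limma voom (limma 3.58.1), other scalings, filters and read columns, removal of a trend on span, a replicate block and leaving out each library. The alternatives that leave out genes without an annotated exon were chosen after seeing the data. The tests were tried on simulated data.

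The members and all lists were chosen with earlier results of these data known. Genes with values in each library were taken, in each role group, by the smallest p in the intron fit (2 genes), the exon fit and the difference, besides the longest, the shortest and those of highest and lowest intron level per kb. Foxp1, Rbms3 and Sorbs2 were added after their values were seen.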

Additional observations from a re-analysis of the deposited data

How the results depend on the processing

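Without a filter beyond 1 read the calls numbered 672 in intron reads (342 as reported), 740 in exon reads (434) and 280 in the difference (138). DESeq2 called 284 genes in exon reads. Members called lower in exon reads numbered 3 with DESeq2, 3 with library totals and 3 with the trend on span removed, against 6. With that trend removed 188 genes and 8 members were called in intron reads. Library totals moved the share of higher calls from 12.6% to 42.6% in intron reads (270 calls, with the median of all genes at 0.11), from 39.9% to 59.5% in exon reads (457 calls) and from 12.3% to 30.1% in the difference (103 calls), so that most exon calls were then higher rather than lower. With genes without an annotated exon also left out, library totals gave 593 intron calls, 75.2% of them higher where most were lower before, around a median of 0.17, and 16 members lower with a median of -0.27. Total reads gave an intron share difference of -3.11 points in the other long genes.

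With each library left out in turn, intron calls ran from 148 (without GC2) to 545 (without GC1), with 204 without LG1 and 173 without LG2, and members called lower from 16 to 24. Exon calls ran from 208 (without GC2) to 455, with 218 without LG2, and members from 2 to 5. On exon library sizes calls ran from 467 (without LG2) to 1021, with 470 without LG3 and 559 without GC2, and members from 27 to 31. Calls of the difference ran from 63 (without LG2) to 233 (without GC1), with 84 without LG1, and members from 6 to 13. The share differences ran from -4.05 to -2.80 points in other genes and from -4.58 to -3.76 in other long genes. The cause of these shifts was not tested.

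The replicate numbers did not pair the libraries: same-numbered libraries had correlations of -0.034, -0.025 and 0.023 in intron reads and 0.013, -0.039 and 0.043 in exon reads. With the replicate block, 397 genes and 22 members were called in intron reads, 536 and 5 in exon reads, 782 and 31 on exon library sizes and 142 and 11 in the difference. Low exon counts limit the exon values of Fhit, Macrod2 and Wwox.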
